A study of Mus musculus with 15 samples.

Results

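The genes described here encode carriers and receptors of vitamin A and vitamin D: Rbp4, Ttr, Stra6, Crabp1, Crabp2, Gc and Vdr. They are 7 genes chosen by name, with earlier results of these data known, where 19938 genes were measured in all. Each of the 7 was sought in a transcript cluster annotated to it alone. That gave 1 cluster for each of 6 genes. Gc, the vitamin D binding protein gene, had no such cluster in the annotation used and was not analysed here.

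The signals come from 15 Affymetrix Mouse Gene 1.0 ST arrays of mouse pancreatic islet cells on a mixed B6 and BALB/C background, with 5 arrays in each of 3 groups. The Pdx1-deficient (PKO) cells, in which the beta-cell transcription factor Pdx1 was deleted, are labelled as reprogrammed. They were taken 5 days after tamoxifen, and neither their floxed allele nor their sort is described in the sources used here. The arrays titled alpha carry the genotype label RIP-CreER; Pdx1fl/+, RosaYFP, and those titled beta carry glucagon-Cre; RosaYFP. Both control groups were YFP+ cells of mice 2 months old. RIP-CreER, driven by the insulin promoter, usually acts in beta cells and glucagon-Cre in alpha cells, so these genotype labels run opposite to the titles. Groups follow the titles. The labels name no animals, so it is unknown whether arrays within a group stand for different mice. The p-values measure only how far these 15 samples spread, and that spread may be technical.

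Vitamin A travels in blood as retinol bound to RBP4, which in turn is held by transthyretin (Ttr), a protein that also carries thyroid hormone. STRA6 is a membrane receptor for RBP4 and lets retinol into cells, and the small cytosolic proteins CRABP1 and CRABP2 bind retinoic acid made from it. Vitamin D travels on the Gc protein and acts through the nuclear receptor VDR, which pairs with a retinoid X receptor on DNA. In the islet, Ttr is known from alpha cells and Rbp4 from delta cells, and the vitamin D receptor has been studied in beta cells.

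Among the measured carrier and receptor genes Rbp4 and Vdr differed most between groups, and the promoters of both are shown because the group differences below concern them. RefSeq (GRCm38.p6) gives 2 start sites for Rbp4 and 1 for Vdr, and each window runs from 250 bases before to 50 bases after the start, 5′ to 3′ on the gene's strand. Capitals mark TAAT, the core of many homeodomain sites, Pdx1 included, the nuclear receptor half-site AGGTCA, the TATA box TATAAA and the GC box GGGCGG, each searched on both strands.
Rbp4 upstream start, chr19:38125272-38125571, minus strand: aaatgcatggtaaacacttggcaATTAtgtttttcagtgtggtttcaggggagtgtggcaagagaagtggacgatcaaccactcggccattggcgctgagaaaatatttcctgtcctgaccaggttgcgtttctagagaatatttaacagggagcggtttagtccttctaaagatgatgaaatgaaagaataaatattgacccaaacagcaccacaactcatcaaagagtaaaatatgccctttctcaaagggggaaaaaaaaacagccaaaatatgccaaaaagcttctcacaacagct
Rbp4 downstream start, chr19:38124762-38125061, minus strand: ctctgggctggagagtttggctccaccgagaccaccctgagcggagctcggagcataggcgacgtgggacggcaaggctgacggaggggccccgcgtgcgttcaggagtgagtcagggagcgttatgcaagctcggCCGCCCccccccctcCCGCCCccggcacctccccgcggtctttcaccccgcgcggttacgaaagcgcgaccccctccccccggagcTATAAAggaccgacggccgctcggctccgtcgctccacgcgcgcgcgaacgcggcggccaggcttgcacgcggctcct
Vdr, chr15:97908247-97908546, minus strand: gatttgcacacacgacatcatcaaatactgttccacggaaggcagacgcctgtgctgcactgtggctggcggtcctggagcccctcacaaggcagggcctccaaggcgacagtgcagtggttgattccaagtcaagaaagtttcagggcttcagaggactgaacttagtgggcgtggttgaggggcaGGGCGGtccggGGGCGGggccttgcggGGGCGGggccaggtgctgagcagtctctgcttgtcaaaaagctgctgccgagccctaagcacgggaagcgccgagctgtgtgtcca
The upstream Rbp4 window is 40.7% G and C and holds 1 TAAT core. The downstream Rbp4 window is 72.0% G and C and holds 1 TATA box and 2 GC boxes. The Vdr window is 61.3% G and C and holds 3 GC boxes and no TAAT. None of the 3 holds AGGTCA. Of 32544 RefSeq windows of this length, 57.9% hold TAAT, 16.2% AGGTCA, 13.6% TATAAA and 35.9% GGGCGG, and their median G and C content is 53.0%. A match describes the letters in the window and does not show binding.

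The deposited log2 signals lay between 2.11 and 13.45, and array medians over all 35556 clusters ran from 5.88 to 6.05. Pdx1 read 9.12, 7.83, 7.68, 6.53 and 7.59 in Pdx1-deficient replicates 1 to 5, 7.27 to 8.21 in alpha arrays and 8.85 to 9.33 in beta arrays, so the array labelled Pdx1-deficient replicate 1 went against its label. The mean of 11 beta-cell markers was 10.37 in that array and 8.87 to 9.50 in the other Pdx1-deficient arrays, against 8.79 to 9.46 in alpha arrays and 10.17 to 10.46 in beta arrays. The mean of 7 alpha-cell markers, Ttr not among them, was 7.87 to 8.12 in Pdx1-deficient arrays, 8.08 to 8.72 in alpha arrays and 7.69 to 7.77 in beta arrays. Alpha replicate 2 had the lowest of the alpha values, and alpha replicate 5 stood apart in acinar enzyme genes, with a list mean of 10.76 where the other arrays had 5.71 to 6.98. The glucagon gene Gcg read at least 12.15 and the insulin gene Ins2 at least 11.77 in every array of the 3 groups. Pdx1-deficient replicates 4 and 5 had the narrowest spread of signals, with quartiles over all clusters of 4.80 and 7.24 in replicate 4 and 4.80 and 7.25 in replicate 5, against 4.55 to 4.66 and 7.34 to 7.40 in beta arrays.

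Rbp4, the retinol carrier of plasma, was higher in alpha cells than in beta cells, and its mean in the Pdx1-deficient group, where the arrays spread most, was close to the beta mean. Its log2 signal was 11.11, 10.29, 10.63, 9.69 and 9.61 in Pdx1-deficient replicates 1 to 5. It was 11.57, 10.60, 11.38, 11.59 and 11.27 in alpha replicates 1 to 5, and 10.66, 9.78, 10.18, 10.38 and 10.20 in beta replicates 1 to 5. Every alpha array except replicate 2 lay above every beta array, while the Pdx1-deficient arrays ran from below the lowest beta array to above the lowest alpha array.

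Rbp4 averaged 11.28 ± 0.40 in alpha and 10.24 ± 0.32 in beta arrays (SD, n = 5 each) and so rose by 1.04 (SE 0.27, 2.06-fold, limma adjusted p = 0.0462) in alpha cells. The two-sided exact permutation test over all splits of the 10 arrays gave p = 0.0159. The call was not stable when arrays were left out: it held without alpha replicate 2 (adjusted p = 0.0147) and without Pdx1-deficient replicates 1, 4 or 5, and was lost without any of the other 11 arrays (0.0531 to 0.104). It was also lost with array medians subtracted (limma adjusted p = 0.06) and with adjustment over all clusters. In these bulk samples a smaller share of cells of a type and less RNA per cell cannot be told apart. Somatostatin (Sst), the hormone of delta cells, averaged 12.13 ± 0.54 in alpha and 12.08 ± 0.32 in beta arrays (SD, n = 5 each), a difference of 0.06 (SE 0.31). Hhex, a transcription factor of delta cells, averaged 6.14 ± 0.36 in Pdx1-deficient, 7.11 ± 0.76 in alpha and 6.73 ± 0.26 in beta arrays (SD, n = 5 each). It ran the way Rbp4 did between alpha and beta arrays (0.38, limma adjusted p = 0.472) and between Pdx1-deficient and alpha arrays (-0.98, 0.456). Between Pdx1-deficient and beta arrays it did not, at -0.59 (limma adjusted p = 0.251) where Rbp4 differed by 0.03. The mean of 7 delta and PP cell markers ran from 8.42 to 8.87 in Pdx1-deficient, 8.53 to 9.17 in alpha and 8.52 to 9.04 in beta arrays. Of these 7, 0 passed in any comparison. Of all genes 1.09% passed for Pdx1-deficient against beta, 4.04% for alpha against beta and 0.0% for Pdx1-deficient against alpha. The mean of 11 stromal and stellate cell markers ran from 5.47 to 5.67 in Pdx1-deficient, 5.28 to 5.97 in alpha and 5.23 to 5.46 in beta arrays. Of these 11, 1 rose in alpha against beta cells, the pericyte gene Rgs5 (1.07, limma adjusted p = 0.0365, arrays not overlapping), and Sparc differed by 1.20 (0.0791). The rest of that list differed by 0.01 (Des) to 0.27 (Col1a2), with Pdgfrb at 0.08 and Acta2 at 0.11. Over all genes 0.893% rose in alpha against beta cells, and 2.29% had all alpha arrays above all beta arrays. Alpha replicate 2 was the lowest alpha array for Rgs5 (5.33), Sparc (5.63) and Rbp4. The part of delta and stromal cells in the Rbp4 values was not tested.

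In the Pdx1-deficient group Rbp4 averaged 10.27 ± 0.63 (SD, n = 5). The difference from beta arrays was 0.03 with a 95% interval of -0.55 to 0.61 (limma adjusted p = 0.956), and its sign turned with the setting. Without replicates 4 and 5, the lowest of the group, it was 0.44 (limma adjusted p = 0.646), and without the array labelled replicate 1 it was -0.18. Against alpha arrays the difference was -1.01 (SE 0.27), with an exact permutation p of 0.0238 and a limma adjusted p of 0.376, which did not pass. With alpha replicate 2 and the array labelled Pdx1-deficient replicate 1 both left out, it was -1.39 (limma adjusted p = 0.00917), and with Pdx1-deficient replicates 4 and 5 left out it was -0.60 (0.871). Sst moved with Rbp4 within the Pdx1-deficient group, at 12.35, 11.69, 12.16, 11.02 and 10.83 in replicates 1 to 5.

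Ttr, the transthyretin gene, was bright in every array and differed little between groups. It read 12.30, 12.20, 12.16, 11.94 and 11.93 in Pdx1-deficient replicates 1 to 5. In alpha replicates 1 to 5 it read 12.41, 12.23, 12.43, 12.47 and 12.39, and in beta replicates 1 to 5 it read 12.19, 12.19, 12.10, 12.01 and 12.31. Alpha replicates 1, 3, 4 and 5 lay above all 10 arrays of the remaining groups, and Pdx1-deficient replicates 4 and 5 lay below all beta arrays.

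The Ttr difference between alpha and beta cells was 0.23 (SE 0.09), 1.17-fold, and did not pass (limma adjusted p = 0.166, 0.0894 to 0.449 over the alternatives; exact permutation p = 0.0159). Pdx1-deficient and beta arrays differed by -0.05 (95% interval -0.24 to 0.14, limma adjusted p = 0.737). Group means were 12.11 ± 0.16 in Pdx1-deficient, 12.39 ± 0.09 in alpha and 12.16 ± 0.11 in beta arrays (SD, n = 5 each). The largest difference was that of Pdx1-deficient from alpha arrays, -0.28 (95% interval -0.47 to -0.09, exact permutation p = 0.0159). It did not pass either (limma adjusted p = 0.531), so no pair of groups passed for Ttr. The Ttr signal ran from 11.93 to 12.47, where the highest value of the table was 13.45. Hormone genes of like brightness also differed little between alpha and beta arrays. Gcg differed by 0.39 (limma adjusted p = 0.0638) and Ins2 by 0.1 (0.449), higher in alpha arrays for both.

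Stra6, the RBP4 receptor gene, was the member whose Pdx1-deficient arrays all lay above all beta arrays. It read 6.51, 6.51, 6.52, 6.87 and 6.74 in Pdx1-deficient replicates 1 to 5, 6.44 to 6.71 (median 6.58) in alpha arrays and 6.29 to 6.48 (median 6.41) in beta arrays. The Pdx1-deficient difference from beta was 0.23 (SE 0.09, 1.18-fold), and its exact permutation p was 0.00794, the lower limit for 10 arrays split 5 and 5. Adjusted over all genes it missed the threshold (limma adjusted p = 0.15, 0.115 to 0.695 over the alternatives). With array medians subtracted the difference was 0.14 (limma adjusted p = 0.331). Replicates 4 and 5, the arrays with the narrowest spread of signals, were the highest for Stra6, and without both the difference was 0.12 (limma adjusted p = 0.695). Alpha arrays differed from beta arrays by 0.18 (limma adjusted p = 0.244).

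Crabp1 and Crabp2, the cytosolic retinoic acid binding proteins, were dim and did not separate the groups. Crabp1 ranged from 5.56 to 6.20 in Pdx1-deficient arrays, 5.68 to 6.09 in alpha arrays and 5.56 to 5.84 in beta arrays. Over the 19938 genes, which leave out clusters with no single symbol, array medians were 6.07 to 6.19 and lower quartiles 4.97 to 5.21. Crabp1 lay below its array's gene median in every array but Pdx1-deficient replicate 4. Crabp2 ranged from 4.82 to 5.19 in Pdx1-deficient, 4.82 to 5.18 in alpha and 4.77 to 5.03 in beta arrays, and lay under its array's lower quartile of the 19938 genes in 5, 3 and 3 of the 5 arrays of those groups.

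For Crabp1 the Pdx1-deficient difference from beta was 0.13 (95% interval -0.15 to 0.41) and the alpha difference from beta was 0.12 (-0.16 to 0.40). For Crabp2 they were 0.03 (-0.17 to 0.22) and 0.06 (-0.14 to 0.25). Limma adjusted p-values of these 4 differences lay between 0.561 and 0.876.

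Vdr, the vitamin D receptor gene, was the member with the clearest separation, and beta cells had the highest signal. It read 8.64, 8.85, 8.70, 7.08 and 7.87 in Pdx1-deficient replicates 1 to 5. It read 8.21, 8.44, 8.11, 8.28 and 8.42 in alpha replicates 1 to 5, and 9.29, 9.10, 9.17, 9.40 and 9.30 in beta replicates 1 to 5. All 5 alpha and all 5 Pdx1-deficient arrays lay below every beta array, and Pdx1-deficient replicates 4 and 5 lay below every alpha array while replicates 1 to 3 lay above.

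Vdr fell by 0.96 on the log2 scale in alpha cells (SE 0.26, 1.95-fold), with 8.29 ± 0.14 in alpha and 9.25 ± 0.12 in beta arrays (SD, n = 5 each; limma adjusted p = 0.0496, exact permutation p = 0.00794). The call stood at the edge of the threshold: it held without alpha replicate 2 or Pdx1-deficient replicates 1, 2 or 4 and was lost without any of the other 11 arrays (limma adjusted p from 0.0515 to 0.115), with quantile normalization again (0.0755), with trend and robust moderation (0.0504), with the replicate block (0.0747) and with adjustment over all clusters (0.0811). Fitted on the alpha and beta arrays alone, where the wide spread of the Pdx1-deficient arrays does not enter, the same difference had an SE of 0.09 and a limma adjusted p of 0.00291. The difference itself ran from -1.05 to -0.85 over all alternatives.

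In the Pdx1-deficient group Vdr averaged 8.23 ± 0.75 (SD, n = 5), a difference of -1.02 from beta arrays (SE 0.26, 2.03-fold, exact permutation p = 0.00794). This fell short of the threshold (limma adjusted p = 0.0635). It passed in 4 of 25 alternatives. Among these were leaving out the array labelled Pdx1-deficient replicate 1 (-1.13, limma adjusted p = 0.0426) and array medians subtracted (0.0408). It did not pass in the other 21. Among those were quantile normalization again (-0.9, limma adjusted p = 0.111) and the fit on these 2 groups alone (0.116). Replicates 4 and 5 carried much of its size: without replicate 4 the difference was -0.74, without replicate 5 -0.94, and without both -0.52 (limma adjusted p = 0.185), with replicates 1 to 3 still below every beta array. The array with the lowest Vdr signal, replicate 4, was also the one with the lowest Pdx1 signal, 6.53. Replicates 4 and 5, which had the narrowest spread of signals, were the lowest of the group for Vdr, Pdx1, Rbp4 and Ttr. They were the highest for Stra6, Crabp1 and Crabp2. The part of signal spread in these values was not tested. The array labelled replicate 1, with Pdx1 at 9.12, had a Vdr signal of 8.64, below all beta arrays. Pdx1-deficient and alpha arrays differed by -0.06 in Vdr (95% interval -0.61 to 0.48), and the sign turned without replicates 4 and 5 (0.44, limma adjusted p = 0.771).

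**Figure D1:**
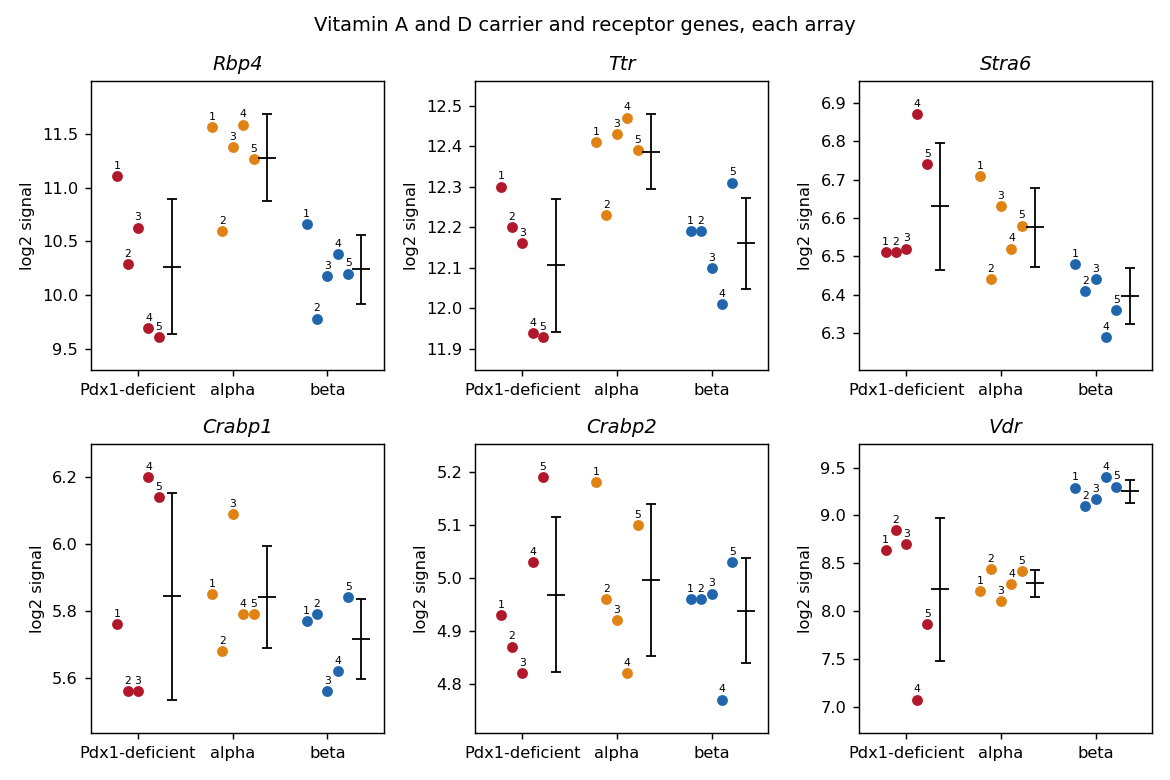
Log2 signal of Rbp4, Ttr, Stra6, Crabp1, Crabp2 and Vdr in each array, by group (Pdx1-deficient, alpha, beta). Points carry the replicate number, and the bar beside them gives mean ± SD (n = 5); the vertical scale differs between panels and does not start at 0. The 5 beta arrays stand alone at the top for Vdr, and 4 of 5 alpha arrays stand above all beta arrays for Rbp4.

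In all, 2 of the 6 measured genes passed between alpha and beta cells, Rbp4 higher and Vdr lower, where 4.04% of all 19938 genes passed (0.893% higher and 3.15% lower). The 6 were chosen with earlier results of these data known, so their share cannot be weighed against that of all genes. Between Pdx1-deficient and beta cells 0 of 6 passed, by limma, where 1.09% of all genes did (0.16% higher and 0.928% lower). At an unadjusted p under 0.05 there were 2, Stra6 and Vdr, beside 4344 of all 19938 genes. The arrays of those groups did not overlap for Stra6, higher, and Vdr, lower, as they did not for 5.96% of all genes (2.77% higher and 3.18% lower). Alpha and beta arrays did not overlap for 1 of 6, Vdr, and for 6.34% of all genes (2.29% higher and 4.05% lower). Between Pdx1-deficient and alpha cells 0 of 6 passed, where 0.0% of all genes did. At an unadjusted p under 0.05 there were 2, Rbp4 and Ttr, beside 1197 of all 19938 genes. Arrays of these groups overlapped for all 6, and did not for 0.637% of all genes (0.356% higher and 0.281% lower). The median difference of the 6 genes was 0.03 for Pdx1-deficient against beta, 0.15 for alpha against beta and -0.05 for Pdx1-deficient against alpha, beside 0.06, 0.04 and 0.02 over all genes. The first and second of these comparisons share the beta arrays. The Pdx1-deficient mean of Rbp4 lay nearer to that of beta cells and its mean of Vdr nearer to that of alpha cells.

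**Figure D2:**
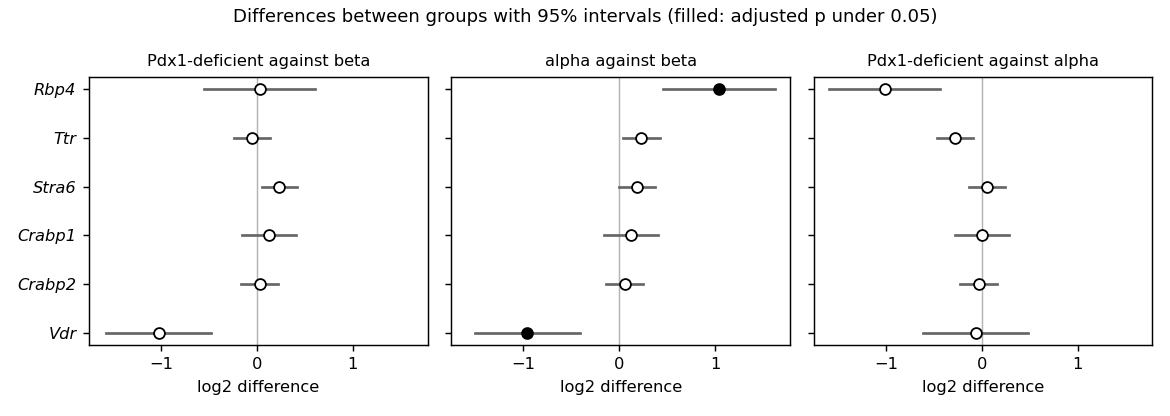
Log2 difference of each gene with its 95% interval from the limma fit over 15 arrays, in 3 comparisons named above the panels; positive values mean higher in the group named first. Filled points passed an adjusted p of 0.05, which were Rbp4 (1.04) and Vdr (-0.96) in alpha against beta cells.

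**Figure D3:**
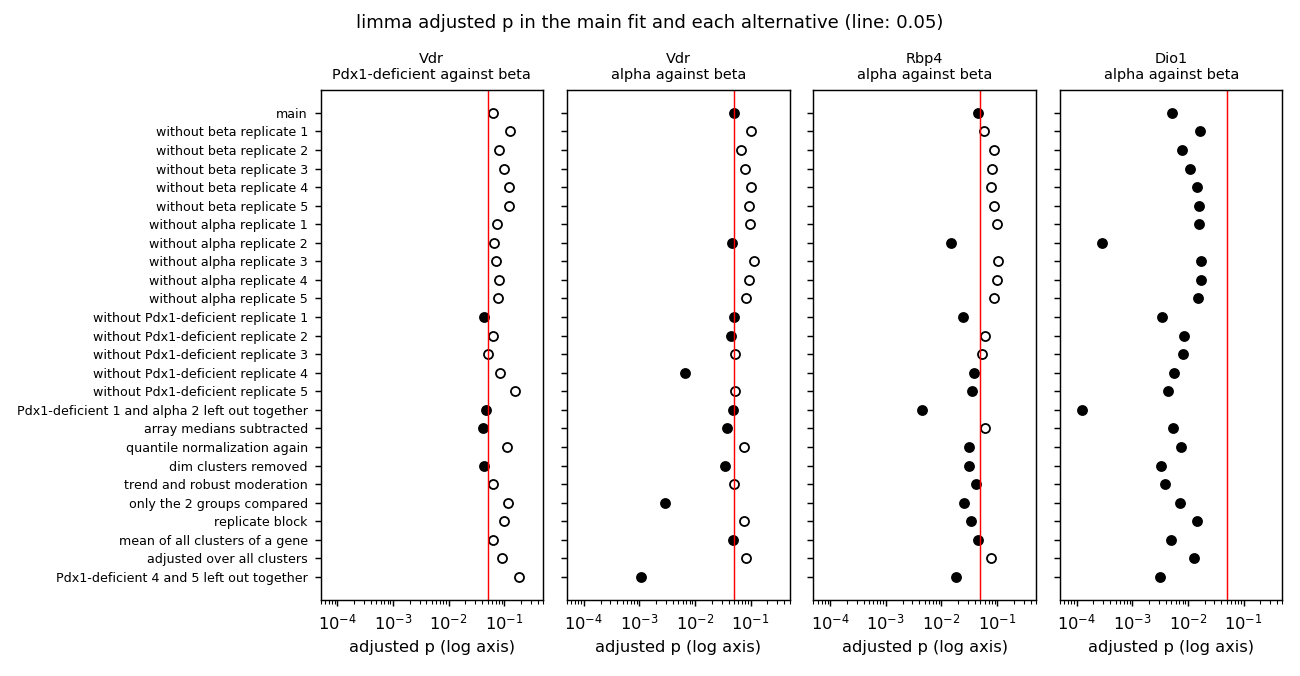
Limma adjusted p (log axis) for Vdr in Pdx1-deficient against beta cells, and for Vdr, Rbp4 and the deiodinase gene Dio1 in alpha against beta cells, in the fit as reported (top row) and in each alternative. Filled points lie under 0.05, the red line. Vdr and Rbp4 cross the line in several alternatives, while Dio1 stays under it in all of them.

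Genes that act beside these carriers were read from lists of names, 82 measured genes in all without the 6 above. The lists too were chosen with earlier results of these data known. Between alpha and beta cells 3 of 82 fell and 0 rose, a share of 3.66% beside 4.04% of all genes. The 3 were Dio1 and Serpina7 among 10 genes of thyroid hormone carriage and response, and Adh1 among 25 genes of retinoid binding, storage and metabolism.

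Dio1, which encodes the deiodinase that converts thyroxine to its active form, fell by 1.82 (SE 0.28, 3.53-fold, limma adjusted p = 0.00524) in alpha cells, with 6.21 ± 0.55 in alpha and 8.03 ± 0.32 in beta arrays (SD, n = 5 each). It was 6.08, 7.18, 5.95, 5.86 and 5.96 in alpha replicates 1 to 5, below every beta array (7.61 to 8.39). This call held in every alternative run (adjusted p 0.000124 to 0.0172). Pdx1-deficient replicates 1 to 5 read 7.61, 6.92, 7.33, 6.38 and 6.33, with a difference of -1.11 from beta (SE 0.28, limma adjusted p = 0.0665). It passed in 5 of 25 alternatives. Among these were leaving out the array labelled Pdx1-deficient replicate 1 (-1.29, limma adjusted p = 0.0296) and leaving out alpha replicate 2 (0.0361). Without Pdx1-deficient replicates 4 and 5 it was -0.74 (limma adjusted p = 0.454).

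Serpina7, the gene of thyroxine-binding globulin, another plasma carrier of thyroid hormone, fell by 2.39 in alpha cells (SE 0.63, limma adjusted p = 0.0462). It read 6.43, 8.77, 6.17, 6.51 and 4.95 in alpha replicates 1 to 5 and 8.04 to 9.61 in beta arrays, so only alpha replicate 2 lay within the beta range. The call held without alpha replicate 2 (0.00442) or Pdx1-deficient replicates 1, 2 or 3, and was lost without any of the other 11 arrays (limma adjusted p 0.0512 to 0.108). Over all 25 alternatives, other settings included, the call was lost in 16. Without alpha replicate 5, the array high in acinar genes and lowest for Serpina7, the difference was -1.99. Pdx1-deficient arrays ranged from 6.56 in the array labelled replicate 1 to 8.90 in replicate 2, a difference of -1.18 from beta (limma adjusted p = 0.275).

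Adh1, an alcohol dehydrogenase gene whose enzyme can oxidise retinol, fell by 2.19 in alpha cells (SE 0.58, limma adjusted p = 0.0482). Alpha replicates 1 to 5 read 8.90, 10.92, 6.26, 8.69 and 8.14, against 10.37 to 11.18 in beta arrays, with replicate 2 again inside the beta range. The call held without alpha replicate 2 (-2.78, limma adjusted p = 0.00199) and was lost without any of the other 14 arrays (0.0536 to 0.108). Over all 25 alternatives, other settings included, the call was lost in 20. Pdx1-deficient arrays read 9.90 to 10.98, a difference of -0.51 from beta (95% interval -1.76 to 0.73).

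**Figure D4:**
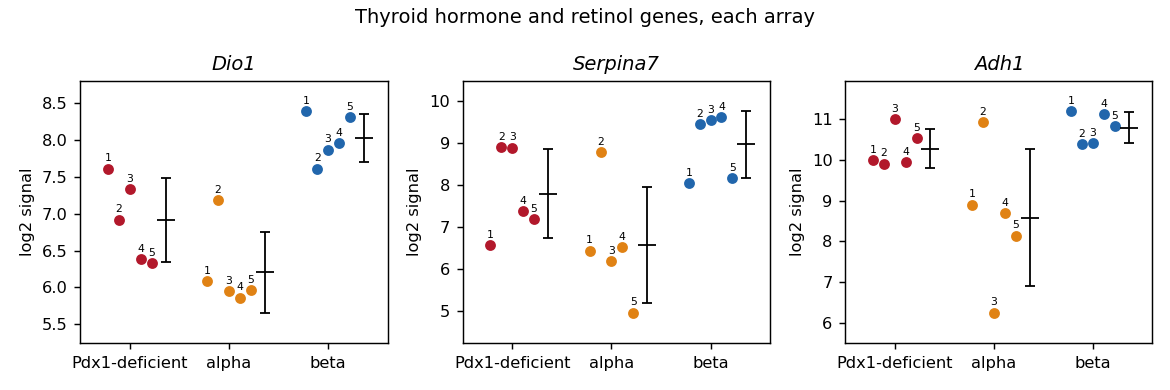
Log2 signal of Dio1, Serpina7 and Adh1 in each array, drawn as points with the replicate number beside mean ± SD (n = 5 per group); vertical scales differ and do not start at 0. Alpha replicate 2 lies above the other 4 alpha arrays for all 3 genes, and for Dio1 all alpha arrays lie below all beta arrays.

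Between Pdx1-deficient and beta cells 0 of the 82 genes passed by limma, where 1.09% of all genes did. An unadjusted p under 0.05 was found for 16 of the 82, beside 4344 of all 19938 genes. Arrays of these groups did not overlap for 1 of the 82, higher, and 2, lower, beside 2.77% and 3.18% of all genes. Retsat, the retinol saturase gene, was 1 of the 2 lower. It read 5.51 to 6.07 in Pdx1-deficient and 6.12 to 6.72 in beta arrays, a difference of -0.54 (limma adjusted p = 0.0879). Aldh1a3, a retinoic acid-forming dehydrogenase gene, differed by -0.55 (limma adjusted p = 0.143) between these groups and by -0.71 (0.0554) between alpha and beta cells. Beta arrays themselves spread from 5.94 to 7.20 for it. Between Pdx1-deficient and alpha cells 0 of 82 passed and 7 had an unadjusted p under 0.05, beside 1197 of all 19938 genes. In the retinoid metabolism list the largest difference there was in Adh1 (1.68, limma adjusted p = 0.608, and 1.10 without alpha replicate 3), followed by the short-chain dehydrogenase gene Dhrs4 (0.74, limma adjusted p = 0.539).

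Of 9 genes for retinoid receptors and nuclear delivery 0 passed in any comparison. Rarb, a retinoic acid receptor, differed by 0.20 between Pdx1-deficient and beta arrays (limma adjusted p = 0.239), Rara by 0.17 between alpha and beta arrays (0.454), and Rxra, a partner of VDR, by -0.18 and 0.15 in those comparisons (0.516 and 0.621). Between Pdx1-deficient and alpha arrays Rxra differed by -0.34 and Fabp5, a fatty acid carrier that also binds retinoic acid, by 0.23. Among 11 retinoic acid target genes 0 passed, with Dhrs3 at 0.33 and Rarres1 at 0.28 for Pdx1-deficient against beta, Rarres2 at 0.41 and Dhrs3 at 0.39 for alpha against beta, and Rarres2 at -0.51 and Rarb at 0.14 for Pdx1-deficient against alpha. Single arrays carried much of this: in alpha against beta cells Rarres2 was 0.18 without alpha replicate 1 and Dhrs3 0.17 without alpha replicate 2, and Rarres2 in Pdx1-deficient against alpha cells was -0.28 without alpha replicate 1. The differences given for Rara, Rarb in Pdx1-deficient against beta cells, Rxra in both comparisons with beta cells and Fabp5 also moved by over 1.5 times with 1 array left out. The median difference of these target genes was 0.17, 0.08 and 0.08 in the 3 comparisons, beside 0.06, 0.04 and 0.02 over all genes.

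Of 10 genes for vitamin D uptake and metabolism and 7 target genes of the receptor 0 passed in any comparison. Cyp24a1, on both lists, and the target genes Spp1 and Bglap had no single-gene cluster and were not analysed here. For 1 of the 7 targets all Pdx1-deficient arrays lay above all beta arrays, beside 2.77% of all genes. An unadjusted p under 0.05 was found there for 2 of the 7, beside 4344 of all 19938 genes. Calb1 and S100g, named below for the size of their differences, were not among these. Pdia3, a disulfide isomerase that has been described as a membrane binder of vitamin D, differed by -0.33 between Pdx1-deficient and beta arrays (limma adjusted p = 0.131) and by -0.42 between alpha and beta arrays (0.0512). Dhcr7, which draws on the precursor of vitamin D for cholesterol, differed by -0.40 between alpha and beta arrays (0.173) and by 0.26 between Pdx1-deficient and alpha arrays (0.942). Cyp3a11, a cytochrome P450 gene, differed by 0.17 between Pdx1-deficient and beta arrays and by 0.22 between Pdx1-deficient and alpha arrays. Both Cyp3a11 values and the Dhcr7 value against alpha arrays moved by over 1.5 times with 1 array left out. The target gene Calb1, a calcium-binding protein, read 6.01 to 8.80 in Pdx1-deficient, 8.25 to 9.95 in alpha and 7.61 to 8.86 in beta arrays, with differences of -0.62 for Pdx1-deficient against beta (0.407) and 0.64 for alpha against beta (0.434). S100g, a related calcium-binding protein gene, differed by 0.31 and 0.59 in the same comparisons (0.441 and 0.186). Between Pdx1-deficient and alpha arrays Calb1 differed by -1.26 (0.625) and S100g by -0.28 (0.971). Pdx1-deficient replicate 5, at 6.01, carried most of the Calb1 values: without it Calb1 differed by -0.15 from beta and by -0.79 from alpha arrays. Without beta replicate 5 the alpha difference of Calb1 from beta was 0.41. S100g was 0.20 in Pdx1-deficient against beta without beta replicate 1, and without alpha replicate 2 it was 0.34 in alpha against beta and -0.02 in Pdx1-deficient against alpha. The median of the 7 target genes was 0.21 for Pdx1-deficient against beta, 0.17 for alpha against beta and 0.05 for Pdx1-deficient against alpha.

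Rbp4 and Ttr are made in bulk by the liver, and 0 of 15 other plasma protein genes of hepatocytes passed in any comparison. The apolipoprotein gene Apoa2 had the largest differences from beta arrays, -0.68 in Pdx1-deficient (limma adjusted p = 0.163) and -0.48 in alpha arrays (0.31), followed by Ahsg (0.28 in Pdx1-deficient) and the transferrin gene Trf (0.35 in alpha). Between Pdx1-deficient and alpha arrays the haptoglobin gene Hp (0.26, and 0.13 without Pdx1-deficient replicate 5) and Apoa1 (0.24, and -0.14 without the array labelled Pdx1-deficient replicate 1) led that list.

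The genes whose signals followed each member most closely over the 15 arrays were sought among 9591 genes brighter than the median gene. These are descriptions over arrays that share groups and the width of their signal distribution. Rbp4 ran closest with the glutathione peroxidase gene Gpx3 (Pearson r 0.905), Gadd45b (0.903) and Sgce (0.898), which were 0.794, 0.858 and 0.750 after group means were subtracted. Vdr ran closest with Pacrgl (0.954), the coatomer gene Copz2 (0.954) and Ogfod1 (0.946), or 0.948, 0.894 and 0.884 within groups. Ttr ran with Taf1d (0.923) and the ribosomal protein genes Rpl23a (0.893) and Rps25 (0.882), at 0.874, 0.884 and 0.891 within groups. Stra6 ran with the growth hormone releasing hormone receptor gene Ghrhr (0.937), Ooep (0.935) and Mir346 (0.929), at 0.883, 0.876 and 0.880 within groups.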

How the data were processed

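Total RNA of islet cells was hybridized to Mouse Gene 1.0 ST arrays, per the labels' protocols. The deposited values are log2 signals per transcript cluster made by the authors with Affymetrix Expression Console, per the submitters' processing notes. For summarization, background correction, the log base and the build, the sources used here name nothing. Folds assume base 2, which fits the range of values. No values were missing.

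Of 35556 clusters 21789 had 1 gene symbol in the platform annotation, 1621 several and 12146 none. Each of 19938 genes was read from its brightest single-symbol cluster. Gene IDs of 21698 clusters matched the RefSeq table (GRCm38.p6), and 0 symbols changed. Promoter windows matched 5 of the 7 genes.

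limma 3.58.1 in R 4.3.3 fitted 3 group means over 15 arrays without a block, with Benjamini-Hochberg adjustment over 19938 genes and a threshold of 0.05. Intervals of 95% use its moderated error. The fit was tested on simulated data. Exact permutation tests are two-sided. Precision is limited by having 5 arrays in a group.

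The genes and lists were chosen with earlier results of these data known. Named were all members, Pdx1, up to 4 passing genes per list or the 2 with the largest difference where none passed, and the 3 most similar genes of members brighter than the median gene. Sst, Hhex, Rgs5, Sparc, Des, Col1a2, Pdgfrb, Acta2, Gcg and Ins2 were named after their values were seen. So were Aldh1a3 in alpha cells, Rxra and the single values given beside the rule's genes. Some genes on the lists had no single-gene cluster and were not analysed here. Alternatives were each array left out, 2 arrays that stand apart left out, other scalings, a filter on dim clusters, trend and robust moderation, 2-group fits, a replicate block, the mean of clusters and adjustment over all clusters. Leaving out Pdx1-deficient replicates 4 and 5 together was added after seeing the data.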

Additional observations from a re-analysis of the deposited data

Results flagged for a closer look

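In groups of 5 arrays, 13 values among 90 gene and group combinations stood apart from the rest of their group by more than Dixon's 95% critical value, where chance gives about 1 in 20. Of the measured carriers and receptors this touched Crabp2, at 4.77 in beta replicate 4 where the other beta arrays read 4.96 to 5.03.

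Of these, 6 were in alpha replicate 2, Apoa1 among them. It read 7.18 for Dio1 (other alpha arrays 5.86 to 6.08), 8.0 for S100g (6.53 to 6.86), 5.79 for Trf (6.43 to 6.65), 4.89 for Rarb (5.10 to 5.18) and 5.12 for Hp (5.44 to 5.55). Apoa1 stood apart in all 3 groups, at 8.93 in the array labelled Pdx1-deficient replicate 1 (others 6.74 to 7.25), 8.64 in alpha replicate 2 (6.63 to 7.0) and 8.91 in beta replicate 1 (6.20 to 6.95).

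The remaining values were 5.97 for Aldh1a3 in the array labelled Pdx1-deficient replicate 1 (6.23 to 6.32), 5.96 for Trf in Pdx1-deficient replicate 2 (6.29 to 6.39), 7.61 for Calb1 in beta replicate 5 (8.57 to 8.86) and 4.73 for Rarres1 in beta replicate 2 (4.36 to 4.45).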

How the results depend on the processing

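Directions of the passing differences (Rbp4, Vdr, Dio1, Serpina7, Adh1 and Pdx1 in alpha against beta) held in all 25 alternatives, while most calls did not. The number of the 6 genes that passed in alpha against beta, 2 as reported, was 0 to 2 with single arrays left out, 1 with array medians subtracted, 1 with quantile normalization again, 1 with trend and robust moderation and 0 with adjustment over all clusters. In Pdx1-deficient against beta it was 0 as reported and 0 to 1 with single arrays left out, and 1 (Vdr) with Pdx1-deficient 1 and alpha 2 left out together, with array medians subtracted or with dim clusters removed. In Pdx1-deficient against alpha it was 1 (Rbp4) with that pair left out. The replicate numbers did not pair the arrays (same-numbered arrays correlated at -0.172 to 0.224 in their deviations). With the replicate block 1 gene, Rbp4, passed in alpha against beta (limma adjusted p = 0.0335), and Vdr did not (0.0747).

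Of the 82 list genes, 3 passed in alpha against beta as reported, 1 to 5 with single arrays left out, 6 with Pdx1-deficient 1 and alpha 2 left out, 5 with array medians subtracted or dim clusters removed, and 1 with trend and robust moderation, with only the 2 groups or with adjustment over all clusters. In Pdx1-deficient against beta 0 to 1 passed with single arrays left out, 1 with that pair left out or dim clusters removed, and 2 with array medians subtracted. In Pdx1-deficient against alpha it was 0 to 1 with single arrays left out and 1 with the pair left out.

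Signs turned for differences that did not pass, and the cause was not tested. With single arrays left out, Pdx1-deficient against beta ran from -0.18 to 0.19 for Rbp4 and -0.03 to 0.06 for Crabp2. Pdx1-deficient against alpha ran from -0.09 to 0.08 for Crabp1, -0.09 to 0.01 for Crabp2, -0.01 to 0.09 for Stra6, -0.22 to 0.22 for Vdr, -0.45 to 0.19 for Pdx1 and -0.14 to 0.60 for Apoa1. With Pdx1-deficient 4 and 5 left out, Pdx1-deficient against beta was 0.06 for Ttr, -0.09 for Crabp1 and -0.07 for Crabp2, and Pdx1-deficient against alpha was -0.21 for Crabp1, -0.06 for Stra6, 0.44 for Vdr and 0.35 for Pdx1. With Pdx1-deficient 1 and alpha 2 left out, Rbp4 against beta was -0.18 and Crabp1 against alpha -0.01. With array medians subtracted, Pdx1-deficient against beta was -0.07 for Rbp4 and -0.07 for Crabp2, alpha against beta -0.03 for Crabp2 and Pdx1-deficient against alpha -0.01 for Crabp1. With quantile normalization again these were -0.11 and -0.07 for Crabp2 in Pdx1-deficient and in alpha against beta, and -7.9e-05 for Crabp1 in Pdx1-deficient against alpha. Scaling also moved the counts over all genes. With array medians subtracted 26 rose and 589 fell in Pdx1-deficient against beta and 123 rose and 1059 fell in alpha against beta. With quantile normalization again these were 5 and 24, and 135 and 443, against 32 and 185, and 178 and 628, as reported.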
